A study of Capra hircus with 6 samples.

Results

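The circular RNAs (circRNAs) described here come from 5 genes of the extracellular matrix and its cell-surface receptors: the collagens COL12A1 and COL14A1, the laminin chain LAMC1, the integrin chain ITGB1 and the fibulin FBLN1. The samples were ovarian follicles taken before ovulation from 2 breeds of goat (Capra hircus), 3 Boer goats and 3 Macheng black goats with normal estrous cycles, with 1 library per animal. Both breeds had been given the same hormones: pregnant mare serum gonadotropin (PMSG, 1000 IU), a stimulus of follicle growth, and human chorionic gonadotropin (hCG, 500 IU), the trigger of ovulation. No age is among the labels used here. The comparison asks whether circRNAs of the follicle differ between the breeds. Members were all deposited entries whose gene identifier was that of 1 of the 5 genes, and a circRNA was 1 combination of chromosome, start, end and strand. This gave 66 entries, 28 circRNAs and 294 reads across the back-splice, out of 28870 entries, 13950 circRNAs and 252857 reads in all. COL12A1 had 12 of the circRNAs, COL14A1 had 9, LAMC1 had 3, and ITGB1 and FBLN1 had 2 each. All 5 are usable hosts, meaning gene identifiers that the files place on 1 chromosome or scaffold with no listed part over 1000000 bases; the series has 783 of these.

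A circRNA forms when a downstream splice donor is joined to an upstream acceptor of the same transcript, so that exons close into a ring. The only reads that tell it from the linear messenger RNA are those across this back-splice. In the ovulating follicle the matrix is known to be rebuilt: the basal lamina between granulosa and theca cells, in which laminins are a main component, is breached, and integrins hold granulosa cells to laminin and other matrix proteins. COL12A1 and COL14A1 encode collagens XII and XIV, which sit on the surface of collagen fibrils and carry long rows of fibronectin type III repeats. LAMC1 encodes the laminin gamma-1 chain, ITGB1 the integrin beta-1 chain that pairs with many alpha chains, and FBLN1 the matrix glycoprotein fibulin-1. Because follicle RNA was sequenced in bulk, fewer cells of a type and less RNA per cell cannot be told apart.

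Back-splice reads in all ran from 24884 to 74796 in the Boer libraries and from 23480 to 49141 in the Macheng black libraries. Boer 1 was the deepest. The 5 genes gave 128, 22 and 46 reads in Boer libraries 1 to 3, against 43, 38 and 17 in Macheng black libraries 1 to 3, or 0.171%, 0.0884% and 0.111% of the back-splice reads of the Boer libraries and 0.11%, 0.0773% and 0.0724% of those of the Macheng black libraries. Each Boer share except that of Boer 2 lay above all Macheng black shares. Of the 9 granulosa markers looked up, NR5A2 alone was a circRNA host, with 0, 5 and 16 reads in Boer and 7, 2 and 3 in Macheng black. None of the 4 theca, 6 oocyte, 5 endothelial, 4 leukocyte or 5 smooth muscle and stroma markers was one, so these tables offer no check of the tissue by its markers.

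Most entries were shallow. Of the 66, 25 rested on 2 reads, the fewest any entry of the files has, and 41 on 2 or 3; the highest had 16. A circRNA not listed in a library may thus have been present there with 0 reads or 1 read, or missed by the caller. By span, the distance between the ends, the 28 circRNAs ran from 162 to 21309 bases with a median of 4980 bases. Of the 28, 24 were seen in Boer and 15 in Macheng black, with 11 in both breeds, 13 in Boer alone and 4 in Macheng black alone. Without Boer 1, the deepest library, 16 were seen in the other Boer libraries and 15 in Macheng black, with 8 in Boer alone and 7 in Macheng black alone. Boer libraries together held 141216 back-splice reads and Macheng black libraries 111641, and the part of this gap in the longer Boer list was not tested for the set. By entries with a gene, 50% of the 28 were in 1 library only, against 56.2% of the circRNAs of the other usable hosts. The same split by breed was not taken over all circRNAs, so the breed counts are no result about the 5 genes. Only 2 circRNAs, 1 of COL14A1 and 1 of LAMC1, were listed in all 6 libraries.

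**Figure D1:**
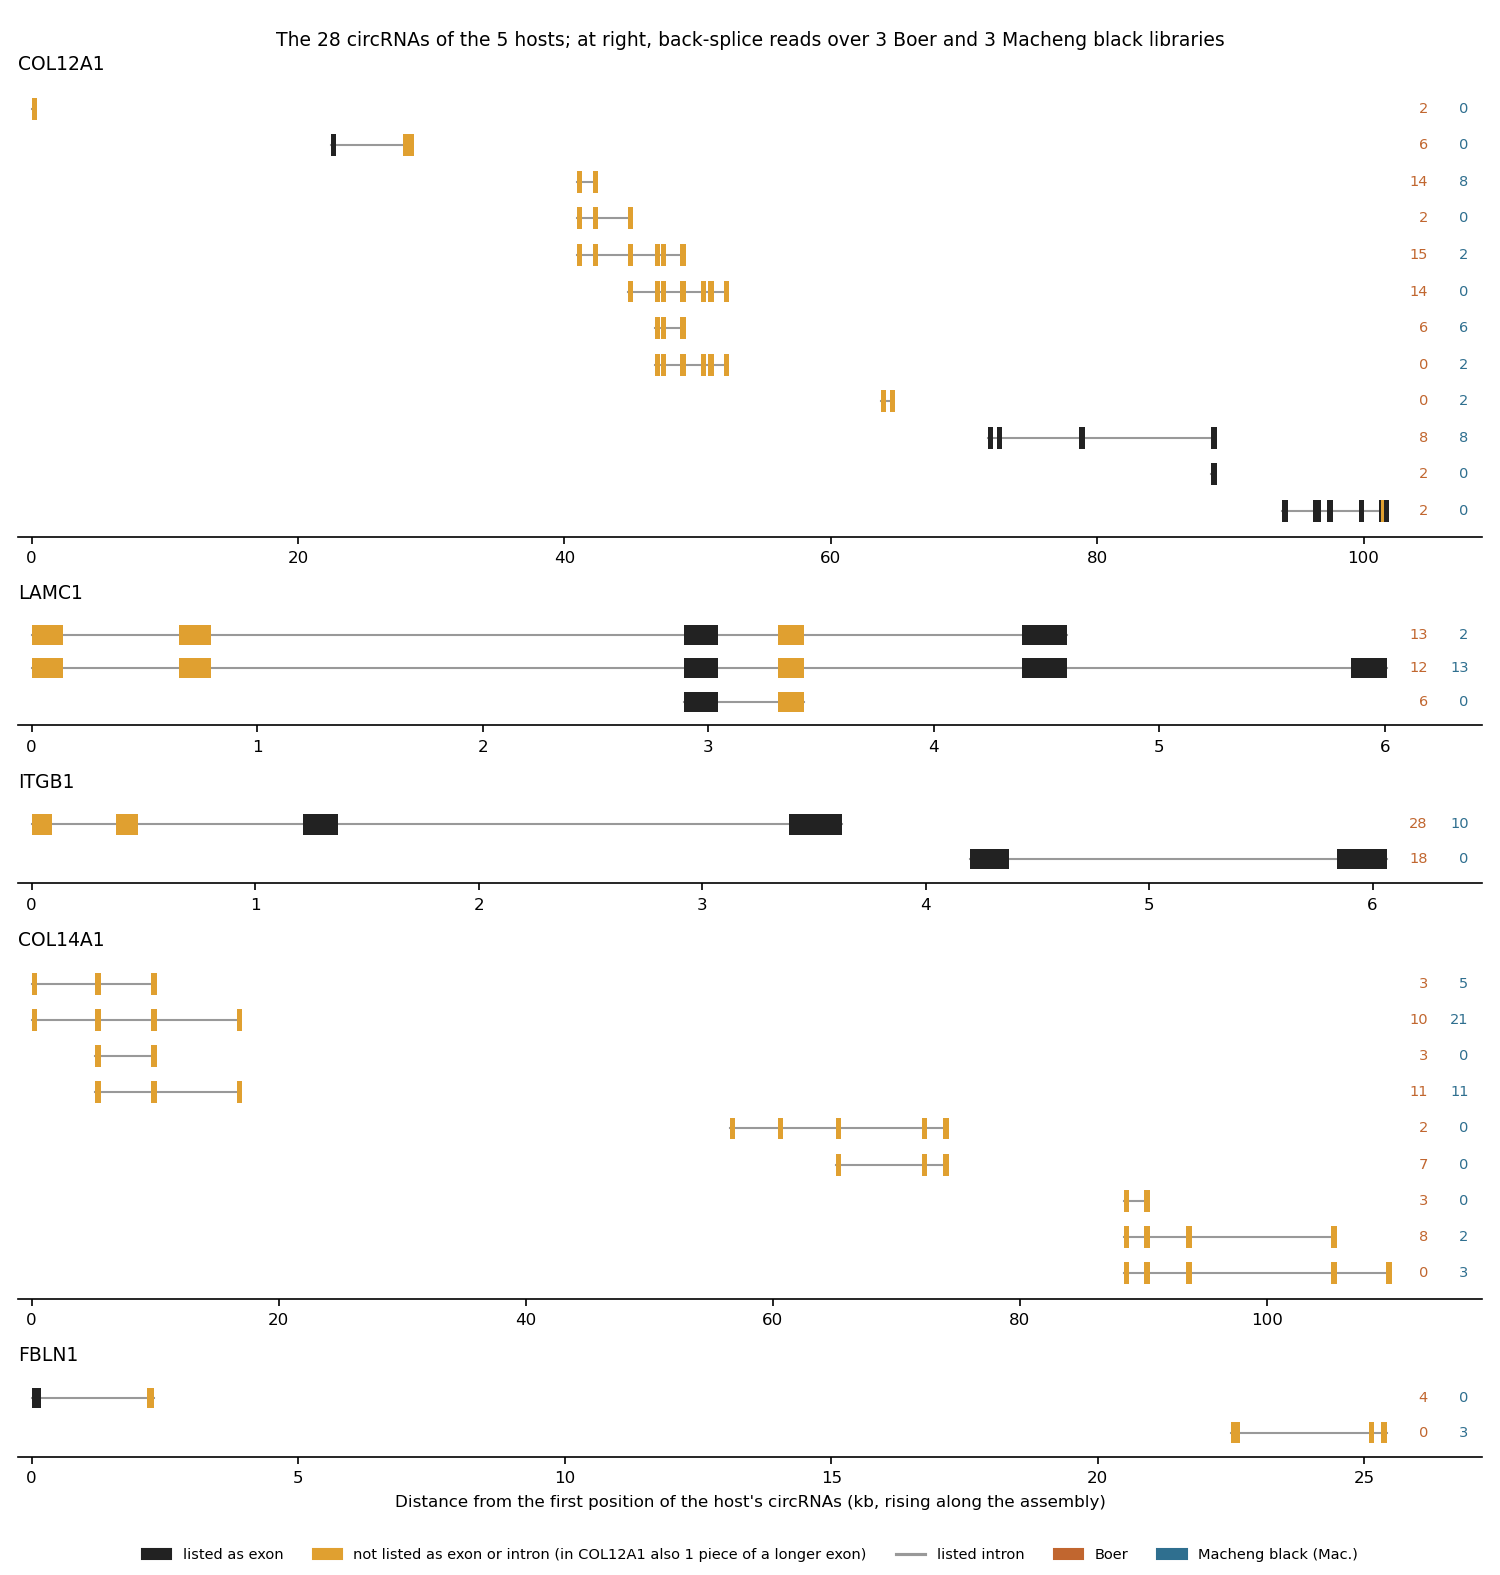
Map of the 28 circRNAs, 1 line each, against distance in kb from the first position of the host's circRNAs. Black boxes are stretches listed as exons, orange boxes stretches not listed as exons, grey lines listed introns, pooled over libraries, with the narrowest boxes widened to be seen; the numbers at right are back-splice reads over the 3 Boer (orange) and 3 Macheng black (blue) libraries. All boxes of COL14A1 are orange, and circRNAs of a host often share an end.

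The deposited lists of exon and intron parts left out short parts. Over the whole series, 0 of 1511 distinct listed exons and 0 of 3409 distinct listed introns of usable host genes were shorter than 150 bases, and the shortest of each was exactly 150 bases. The circRNAs of the 5 genes hold 57 distinct stretches outside their listed introns. Of these, 19 were listed as exons, from 150 to 603 bases long. The other 38 were 17 to 205 bases long with a median of 130, and 34 of them were shorter than 150 bases. The exceptions were a 150-base stretch of COL14A1, a 164-base stretch of FBLN1, and in COL12A1 a 162-base piece inside a longer listed exon and a 205-base gap between 2 listed exons. A circRNA listed with introns only therefore need not lack exons. By the deposited lists, 17 of the 28 circRNAs (60.7%) had no listed exon, against 29.6% of the 2015 circRNAs of the other usable hosts, a description without a test. Most of the 17 came from the collagens: 9 of 9 in COL14A1 and 7 of 12 in COL12A1. The rest was 1 of 2 in FBLN1, with 0 in LAMC1 and ITGB1.

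**Figure D2:**
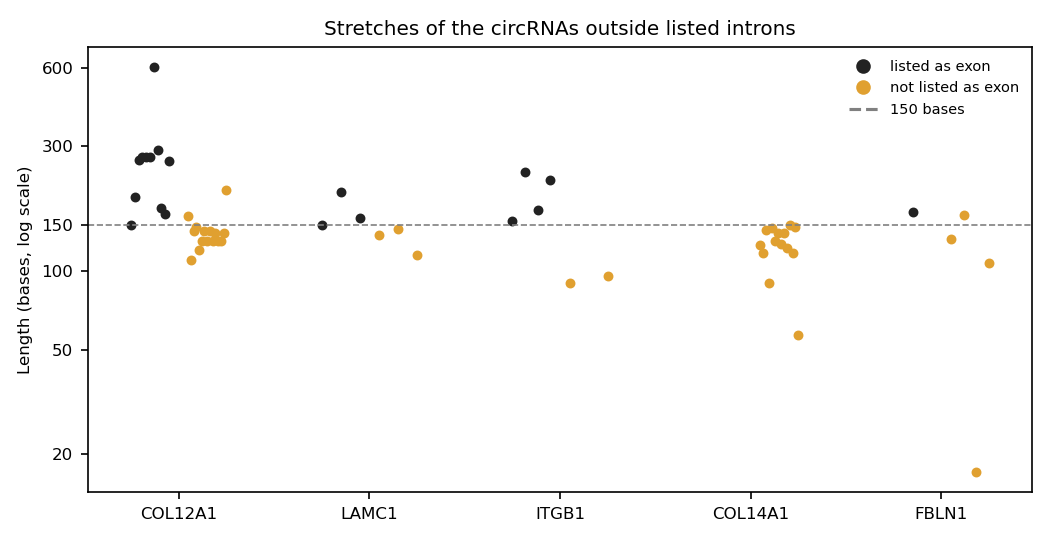
Length in bases (log scale) of each stretch outside the listed introns, by host; black points are listed as exons, orange points are not, and the dashed line is at 150 bases. The 19 black points lie at or above the line, and 34 of the 38 orange points below it.

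The bases outside listed introns, a stand-in for exon content, ranged from 162 to 1975 per circRNA with a median of 405, over 1 to 7 stretches (median 3). The deposited spliced length, by contrast, counts introns. For the COL14A1 circRNA at chromosome 14, 91602323 to 91619009, it was 16210 bases, while 4 stretches of 126, 117, 144 and 90 bases, 477 in all, lay outside its introns. For ITGB1, the circRNA at positions 122673 to 126299 had a spliced length of 3441 bases and 581 bases outside introns. The same back-splice could also carry different part lists in different libraries. This held for 6 of the 14 circRNAs of the 5 genes with entries in 2 or more libraries (42.9%), against 18.6% of such circRNAs in the other usable hosts, again without a test. In LAMC1, a 150-base exon from 61808755 to 61808904 was listed in 2 of the 6 libraries in which a circRNA spanned it, Boer 2 and Boer 3, and the 267-base intron after it in 4 of 6. Within a library the lists did not vary: in 0 of 44 cases was a part listed for some and not for other circRNAs of that library that span it. All positions are those of the files, counted from 1, in a genome build that the files do not name.

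COL12A1, on the minus strand of chromosome 9, had 12 circRNAs, rank 9 among the 783 usable hosts, and 99 reads, rank 91. In reads the libraries had 55, 8 and 8 in Boer and 10, 9 and 9 in Macheng black. Boer 1 stood far above the other 5, which lay between 8 and 10 reads. No single circRNA led: the most read, from 1924777 to 1926118, held 22 of the 99 reads (22.2%, exact 95% interval 14.5% to 31.7%, counting error only). It lies in a cluster of 6 circRNAs between 1924777 and 1935934 that share ends. Its first position, 1924777, was used by 3 circRNAs with 41 reads together, and 1932702 and 1935934 each closed 2. On the minus strand the first position is the downstream end of the RNA.

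The most read COL12A1 circRNA had 9, 0 and 5 reads in Boer and 3, 3 and 2 in Macheng black. Its breeds overlapped. The circRNA from 1924777 to 1932702 was read 13, 2 and 0 times in Boer and 0, 2 and 0 in Macheng black, with most of them in Boer 1. From 1928594 to 1935934, a circRNA of 7 stretches and 946 bases outside introns had 9, 2 and 3 reads in Boer, while no Macheng black library listed it. The groups did not overlap there. The circRNA from 1930655 to 1932702 was read 6, 0 and 0 times in Boer and 4, 0 and 2 in Macheng black, and that from 1955655 to 1972678 had 8, 0 and 0 in Boer and 3, 2 and 3 in Macheng black. In this last one all 4 stretches, of 193, 267, 273 and 273 bases, were listed as exons. The other 7 circRNAs of COL12A1 were each in 1 library with 2 to 6 reads.

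The stretch lengths of the collagen circRNAs follow a pattern that no part of the selection used. In the COL12A1 cluster, neighbouring stretches of 130 and 143 bases on both sides of an intron add up to 273 bases, and those of 147 and 120 to 267 bases. These sums equal the lengths of single listed exons of the same gene, 273 and 267 bases, in 5 of its 18 neighbouring pairs. The sum was a multiple of 3 in 14 of the 18 COL12A1 pairs and in 11 of 11 COL14A1 pairs, against 1 of 5 in LAMC1, 2 of 4 in ITGB1 and 0 of 3 in FBLN1. Where both stretches are multiples of 3, as with 147 and 120, the sum must be one. Single stretches were multiples of 3 in 13 of 26 in COL12A1 and 9 of 14 in COL14A1. In LAMC1 this held for 3 of 6, in ITGB1 for 4 of 6 and in FBLN1 for 0 of 5. All bases outside introns together were a multiple of 3 in 7 of the 9 COL14A1 circRNAs and in 6 of the 12 of COL12A1. These counts describe stretches outside the listed introns, many of them not listed as exons. A pair shared by several circRNAs was counted once. An inner stretch enters the pair on each of its sides, so the pairs are not independent, and no test was made.

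COL14A1, on the plus strand of chromosome 14, had 9 circRNAs and 89 reads. The libraries had 32, 5 and 10 reads in Boer and 26, 13 and 3 in Macheng black. Boer 1 and Macheng black 1 were the highest. The circRNAs fall into 3 groups along the gene, each with shared ends: 4 between 91602323 and 91619009, a pair between 91658855 and 91676267, and 3 that all open at 91690763. The circRNA from 91602323 to 91619009 was listed in every library, with 6, 2 and 2 reads in Boer and 13, 5 and 3 in Macheng black. In CPM (back-splice reads scaled to a library of 1000000 such reads, with TMM normalization) it had 92.8, 68.4 and 46.8 in Boer and 363, 109 and 114 in Macheng black, so that every Macheng black library lay above every Boer library. The gap was narrow: the 109 CPM of Macheng black 2 rested on 5 reads, each worth 21.9 CPM, and the 92.8 CPM of Boer 1 on 6 reads. A second circRNA with the same last position, from 91607479, had 7, 0 and 4 reads in Boer and 3, 8 and 0 in Macheng black, and the breeds overlapped. That from 91690763 to 91707709 showed 6, 0 and 2 reads in Boer and 2, 0 and 0 in Macheng black. The other 6 had 2 to 8 reads in all, in 1 or 2 libraries.

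LAMC1, on the plus strand of chromosome 16, had 3 circRNAs and 43 reads in a window from 61805864 to 61811873. The libraries had 11, 5 and 12 reads in Boer and 2, 10 and 3 in Macheng black, with Macheng black 2 inside the Boer range. Of the reads, 25 (58.1%, exact 95% interval 42.1% to 73%) belonged to the circRNA from 61805864 to 61811873, listed in all libraries with 7, 2 and 3 reads in Boer and 2, 8 and 3 in Macheng black. A circRNA with the same first position but closing 1 listed exon earlier, at 61810453, had 4, 0 and 9 reads in Boer and 0, 2 and 0 in Macheng black. The smallest, from 61808755 to 61809286, with a 150-base exon and a 115-base stretch, had 3 reads in Boer 2. Boer 1 listed the same back-splice with 3 reads but no gene and no part, so those reads are not in the sum for LAMC1. Over the whole series, the 560 entries without a gene were exactly the entries with 0 non-junction reads.

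ITGB1, on the minus strand of a sequence that the files do not place on a chromosome, had 2 circRNAs that do not overlap, and 56 reads. The libraries had 30, 2 and 14 reads in Boer and 5, 3 and 2 in Macheng black. Boer 1 and Boer 3 were above all Macheng black libraries, and Boer 2 was at the level of the lowest. The circRNA from 122673 to 126299 was read 16, 0 and 12 times in Boer and 5, 3 and 2 in Macheng black. Its 4 stretches are 90, 96, 156 and 239 bases long, of which the longer pair was listed as exons. The circRNA from 126874 to 128738, of 2 listed exons of 171 and 223 bases, had 14, 2 and 2 reads in Boer, while no Macheng black library listed it.

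FBLN1, on the minus strand of chromosome 5, was at the limit of detection, with 7 reads over 2 circRNAs. That from 107508653 to 107510942 had 2 reads in each of Boer 2 and Boer 3, and that from 107531149 to 107534078 had 3 reads in Macheng black 2. In the other 3 libraries no FBLN1 circRNA was listed, and no circRNA was seen in both breeds. About 3 reads is the upper 95% limit for a count of 0, and an unlisted circRNA may still have been present. Nothing can thus be read from this difference. The 169-base exon of the first circRNA was listed in Boer 3 and left out in Boer 2.

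**Figure D3:**
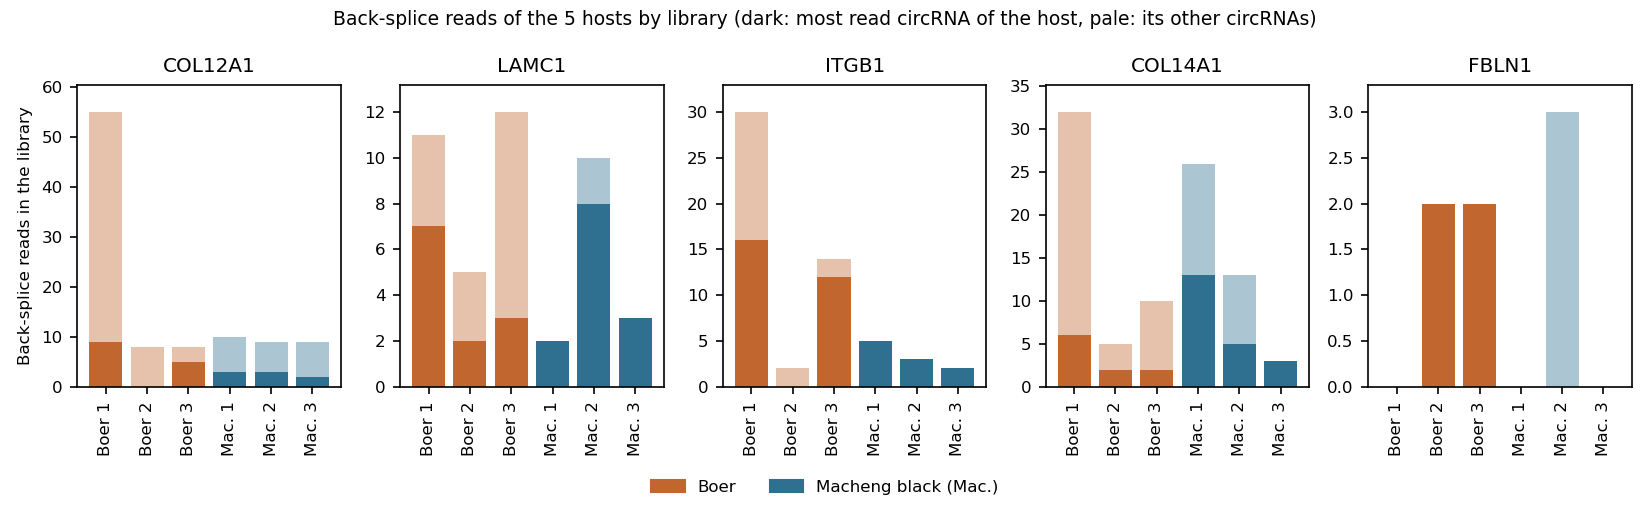
Back-splice reads of each host (vertical axis, separate scale per panel) in the 3 Boer and 3 Macheng black (Mac.) libraries; the dark part of a bar is the host's most read circRNA and the pale part its others. Boer 1 has 55 reads of COL12A1, against 8 to 10 in the other libraries.

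Whether the breeds differ was tested over every circRNA that 3 or more libraries listed, each with 2 or more reads, and over host genes by the same rule. None of the 5 genes and none of their circRNAs passed. Of the 28 circRNAs, 12 entered the test, and 0 of these 12 passed edgeR's quasi-likelihood test at an adjusted p of 0.05, where 0.35% of the 3712 tested circRNAs did. At an unadjusted p under 0.05 there were 2 of 12 with edgeR, where the share of all tested was 5.23%. These 2, ITGB1 126874 to 128738 and COL12A1 1928594 to 1935934, were listed in Boer alone. They entered the test through the Boer libraries alone, so their number is no support for a difference. DESeq2 called 0 of 12 (0.216% of all tested) and gave 1 of 12 an unadjusted p under 0.05 (3.05% of all tested). Of the 12 log2 fold changes (Boer over Macheng black), 7 were positive and 5 negative, from -1.43 to 5.25, with a median of 0.60 against 0.11 over all tested circRNAs. The 2 listed in Boer alone are among the positive values and enter this median. The SE of the 12 values ran from 0.98 to 2.18, so only differences of many fold were detectable.

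The pair with the largest fold changes were the circRNAs listed in Boer alone. ITGB1 126874 to 128738 averaged 111 ± 92.3 CPM in Boer follicles and 0 CPM in Macheng black (SD over n = 3 goats per breed). With Macheng black set at a floor of 3 reads over the group, the Boer mean was 3.78 times that floor, and 1.97 times without Boer 1. The edgeR log2 fold change was 5.25 ± 2.15 (SE; adjusted p = 0.869) and 4.13 without Boer 1. COL12A1 1928594 to 1935934 averaged 92.6 ± 40.3 CPM in Boer follicles and 0 CPM in Macheng black (SD over n = 3 goats per breed). Its Boer mean was 3.16 times the same floor, and 2.37 times without Boer 1. Its edgeR log2 fold change was 4.98 ± 2.18 (SE; adjusted p = 0.88). Neither passed. Among all tested circRNAs, 1.72% were listed in all Boer and no Macheng black libraries, and in 6.92% every Boer library lay above every Macheng black library, which held for these 2 of the 12. Both entered the test through the Boer libraries alone, so none of the unadjusted p, the lack of overlap and the ratio to the floor is support for a difference. An unlisted library may still hold a read, so these ratios are no lower bounds. In the other direction, every Macheng black library lay above every Boer library for 1 of the 12, the COL14A1 circRNA from 91602323 to 91619009, and for 4.8% of all tested. It averaged 69.3 ± 23 CPM in Boer follicles and 195 ± 145 CPM in Macheng black (SD over n = 3 goats per breed; log2 fold change -1.43 ± 0.98 with its SE in edgeR, adjusted p = 1). Without Macheng black 1 the log2 fold change was -0.64.

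The remaining 9 tested circRNAs overlapped between the breeds. Those with the larger positive fold changes were LAMC1 61805864 to 61810453, at 90.8 ± 108 CPM in Boer follicles and 14.6 ± 25.2 CPM in Macheng black, and COL12A1 1924777 to 1932702, at 89.8 ± 102 CPM in Boer follicles and 14.6 ± 25.2 CPM in Macheng black (SD over n = 3 goats per breed; edgeR log2 fold changes 2.27 ± 1.78 and 2.27 ± 1.77, SE, adjusted p = 1 for both). In each the SD in Boer exceeded the mean. The LAMC1 value was 0.94 without Boer 3 and 4.97 without Macheng black 2, and the COL12A1 value 0.87 without Boer 1 and 4.91 without Macheng black 2. ITGB1 122673 to 126299 averaged 176 ± 153 CPM in Boer follicles and 93.7 ± 40 CPM in Macheng black (SD over n = 3 goats per breed; log2 fold change 0.95 ± 0.98 with its SE in edgeR, adjusted p = 1), with values of 0.63 without Boer 1, 0.50 without Boer 3 and 1.47 without Boer 2. The LAMC1 circRNA listed in all libraries averaged 82.3 ± 22.5 CPM in Boer follicles and 115 ± 59.5 CPM in Macheng black (SD over n = 3 goats per breed; log2 fold change -0.46 ± 1.18 with its SE in edgeR, adjusted p = 1). The other COL12A1 circRNAs had log2 fold changes of 0.25 ± 1.34 (1924777 to 1926118), -0.76 ± 1.75 (1930655 to 1932702) and -0.74 ± 1.59 (1955655 to 1972678), and those of COL14A1 were -0.33 ± 1.39 (91607479 to 91619009) and 1.27 ± 1.75 (91690763 to 91707709; SE, edgeR adjusted p = 1 for all 5). The values moved widely without single libraries: COL12A1 1955655 to 1972678 was at -4.58 without Boer 1 and -0.21 without Boer 3, and COL14A1 91690763 to 91707709 at 0.35 without Boer 1 and 4.14 without Macheng black 1. The sign of 4 of these turned when 1 library was left out: 0.25 became -0.27 without Boer 1, -0.76 became 0.04 without Macheng black 1 (and -4.22 without Boer 1), -0.33 became 0.65 without Macheng black 2 and 0.14 without Boer 2, and for the LAMC1 circRNA -0.46 became 0.02 without Macheng black 2.

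As whole hosts, 0 of the 5 passed edgeR, where 1.16% of the 430 tested host genes did, and 1 of 5, ITGB1, had an unadjusted p under 0.05, as did 6.98% of all tested. DESeq2 called 0 of 5 (0.233% of all tested) and gave none an unadjusted p under 0.05 (4.65% of all tested). Here CPM are scaled to the reads of usable host genes. ITGB1 averaged 1616 ± 1057 CPM in Boer follicles and 556 ± 234 CPM in Macheng black (SD over n = 3 goats per breed). Its edgeR log2 fold change was 1.60 ± 0.76 (SE; adjusted p = 0.577). Boer 2, at 437 CPM, lay among the Macheng black libraries, at 817, 367 and 483 CPM. When libraries were left out in turn, the lowest ITGB1 log2 fold change was 1.13, without Boer 1.

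COL12A1 averaged 2465 ± 1828 CPM in Boer follicles and 1637 ± 535 CPM in Macheng black (SD over n = 3 goats per breed; log2 fold change 0.70 ± 0.51 with its SE in edgeR, adjusted p = 0.959). Its direction rested on Boer 1, at 4543 CPM against 1749 and 1104 in the other Boer libraries: without Boer 1 the log2 fold change was -0.15. LAMC1 averaged 1219 ± 390 CPM in Boer follicles and 759 ± 450 CPM in Macheng black (SD over n = 3 goats per breed; log2 fold change 0.62 ± 0.82 with its SE in edgeR, adjusted p = 0.959), with values of 1.28 without Macheng black 2, 0.26 without Macheng black 1 and 0.34 without Boer 3. COL14A1 averaged 1706 ± 825 CPM in Boer follicles and 2189 ± 1837 CPM in Macheng black (SD over n = 3 goats per breed; log2 fold change -0.32 ± 0.51 with its SE in edgeR, adjusted p = 0.959), and without Macheng black 1, at 4251 CPM, the value was 0.54, and without Boer 1 it was -0.81. FBLN1, with reads in 3 libraries, gave 0.54 ± 1.91 (SE, edgeR adjusted p = 0.959), and -0.22 without Boer 2 or 3.69 without Macheng black 2. All 5 hosts overlapped between the breeds.

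**Figure D4:**
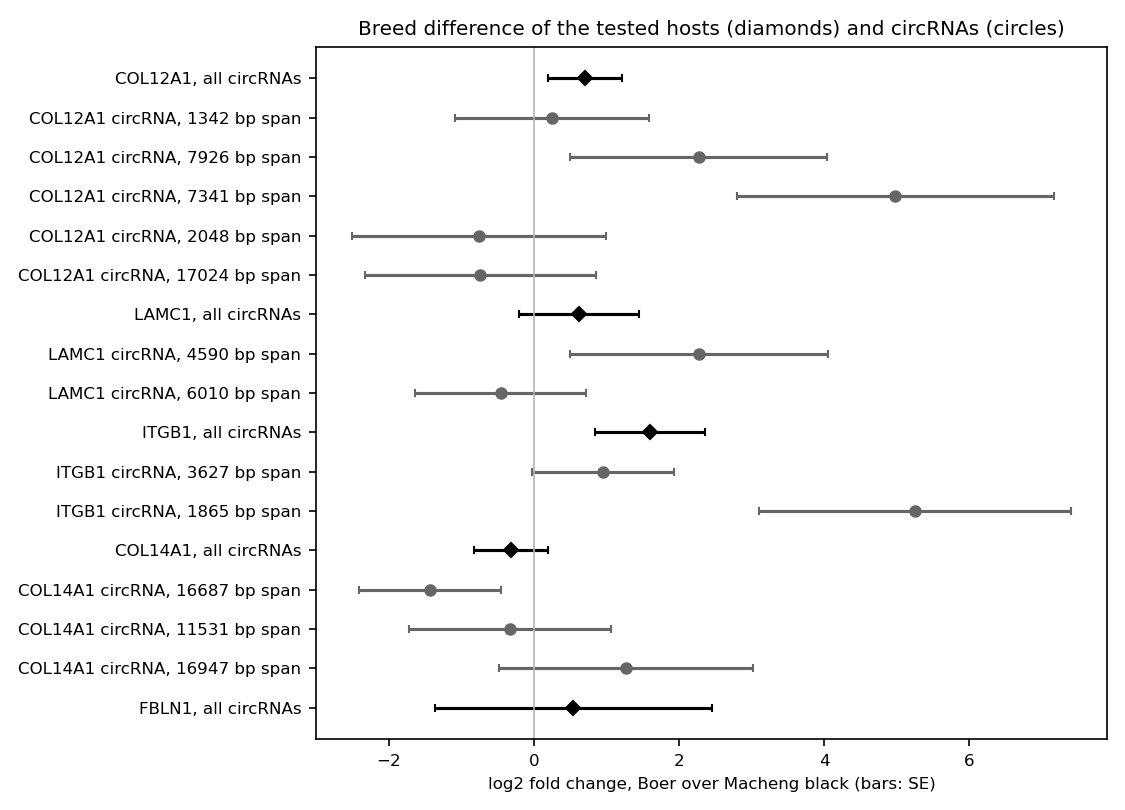
Log2 fold change, Boer over Macheng black, with its SE, for the 5 hosts (diamonds) and their 12 tested circRNAs (circles, named by host and span). The pair of circles near 5 are the circRNAs of COL12A1 and ITGB1 listed in Boer alone; no value passed the test.

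How a host's reads were divided among its circRNAs was compared as the share on its most read circRNA. For LAMC1 this share was 63.6%, 40% and 25% in Boer goats and 100%, 80% and 100% in Macheng black, without overlap; the means were 42.9% ± 19.5 in Boer goats and 93.3% ± 11.5 in Macheng black (SD over n = 3 goats per breed; exact permutation test, two-sided, p = 0.1 and 0.2 adjusted over the 4 hosts tested). With 3 animals against 3, no such test can go below 0.1. For ITGB1 it was 53.3%, 0% and 85.7% in Boer goats and 100% in each Macheng black library (46.3% ± 43.3 and 100% ± 0, SD over n = 3 goats per breed; exact permutation test, two-sided, p = 0.1, adjusted 0.2). These shares rest on 2 to 30 reads per library, and a library with few reads lists few circRNAs. No entry has fewer than 2 reads, so a host with 2 or 3 reads in a library lists only 1 circRNA there. Its share is then fixed at 0% or 100%. This held for LAMC1 in Macheng black 1 and 3, and for ITGB1 in Boer 2 and in Macheng black 2 and 3. The lack of overlap was thus partly fixed in advance and is no support for a breed difference. COL14A1 had 26.2% ± 11.9 in Boer goats and 62.8% ± 32.7 in Macheng black, and COL12A1 26.3% ± 32.4 and 28.5% ± 5.7 (SD over n = 3 goats per breed; exact permutation tests, two-sided, p = 0.2 and 0.9, adjusted 0.267 and 0.9). For COL12A1 the sign of the difference turned without Boer 1, Boer 2 or Macheng black 2, at 2.73, 10.9 and 0.177 percentage points, and it was -20.3 without Boer 3. The ITGB1 difference of -53.7 points was -30.5 without Boer 2, and that of COL14A1, -36.6 points, was -18 without Macheng black 3, whose share of 100% rests on 3 reads.

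Counts of circRNAs listed per library are given before and after thinning to equal depth, with no test. COL12A1 had 8, 4 and 2 in Boer and 3, 4 and 4 in Macheng black, and COL14A1 had 6, 2 and 4 in Boer and 5, 2 and 1 in Macheng black. LAMC1 had 2 in each Boer library and 1, 2 and 1 in Macheng black, and ITGB1 had 2, 1 and 2 in Boer and 1 in each Macheng black library. After thinning to 23480 reads per library, the means for COL12A1 were 3.25 in Boer and 2.45 in Macheng black, those for LAMC1 1.52 and 0.767, and those for ITGB1 1.35 and 0.817. For COL14A1 the difference between the breeds' means was 1.33 circRNAs before thinning and -0.183 after it, and, unthinned, 0.333 without Boer 1, 0.5 without Macheng black 3, 2.33 without Boer 2 and 2.5 without Macheng black 1. For COL12A1 the unthinned difference of 1 circRNA was -0.667 without Boer 1, 2.33 without Boer 3 and 0.667 without Macheng black 1.

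Non-junction reads, the second count column of the files, are by their name those that do not cross the back-splice; the files give no fuller definition. In 0 of 9656 nested pairs of a library did the inner circRNA have more of them than the outer. Among nested circRNAs the column thus never fell as the span grew, and sums over them count reads repeatedly. Elsewhere it need not follow span: in Boer 2, a COL12A1 circRNA of 273 bases had 140 such reads and 1 of 7341 bases had 120. The column is compared here first for single circRNAs. The COL14A1 circRNA listed in all libraries had 103, 196 and 82 non-junction reads in Boer and 459, 169 and 194 in Macheng black. Macheng black 1 was highest in these as in back-splice reads. The share of its back-splice, 2 times the back-splice reads over that plus the non-junction reads, was 10.4%, 2% and 4.65% in Boer goats and 5.36%, 5.59% and 3% in Macheng black, and the breeds overlapped. For the LAMC1 circRNA in all libraries, non-junction reads were 87, 90 and 151 in Boer and 124, 120 and 165 in Macheng black, and the share was 13.9%, 4.26% and 3.82% in Boer goats and 3.12%, 11.8% and 3.51% in Macheng black.

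The density of non-junction reads varied widely between circRNAs of 1 gene. The COL12A1 circRNA from 1955655 to 1972678, all of whose exons were listed, had 868 non-junction reads in Boer 1 and 1994, 1007 and 1815 in Macheng black, so its back-splice share was 1.81% in Boer 1 and 0.3%, 0.396% and 0.329% in Macheng black. The circRNA from 1924777 to 1926118 of the same gene had 42 and 22 in Boer 1 and Boer 3 and 68, 25 and 80 in Macheng black, with shares of 30% and 31.2% in Boer goats and 8.11%, 19.4% and 4.76% in Macheng black. Over the 66 entries, non-junction reads per kb of span, scaled between libraries on the 1117 circRNAs with such reads in all 6, had a median of 61.2 in the 27 entries with a listed exon and 12.1 in the 39 without. All COL14A1 entries were without a listed exon and all ITGB1 entries had one, so listing and host cannot be told apart here. In COL12A1 the entries without one had 5.57 to 51.3 and those with one 37.2 to 484. LAMC1 entries, all with a listed exon, had 5.32 to 27.3. In FBLN1 the entry with one had 9.43, and those without had 12.4 and 26.1. Entries of 1 gene share their reads, and no test was made.

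Summed per host, no difference in back-splice share passed. COL12A1 had 7.58%, 0.986% and 19.5% in Boer goats and 0.947%, 1.55% and 0.899% in Macheng black (9.36% ± 9.39 and 1.13% ± 0.362, SD over n = 3 goats per breed; exact permutation test, two-sided, p = 0.2). LAMC1 had 12.2%, 9.71% and 8.08% in Boer goats and 3.12%, 8.4% and 3.51% in Macheng black (9.98% ± 2.05 and 5.01% ± 2.94, SD over n = 3 goats per breed; exact permutation test, two-sided, p = 0.2). ITGB1 averaged 3.21% ± 3 in Boer goats and 1.1% ± 0.17 in Macheng black, and COL14A1 7.96% ± 4.75 and 5.38% ± 4.07 (SD over n = 3 goats per breed; exact permutation tests, two-sided, p = 0.4 and 0.5). Adjusted over the 4 hosts with reads in all libraries, these p were 0.4, 0.4, 0.5 and 0.5. The sizes moved when single libraries were left out, widely for COL12A1, ITGB1 and COL14A1 and less for LAMC1. For COL12A1 the difference of 8.23 percentage points, Boer minus Macheng black, was 3.15 without Boer 3 and 12.4 without Boer 2. For LAMC1 that of 4.97 points was 3.88 without Boer 1 and 6.66 without Macheng black 2. For ITGB1 that of 2.11 points was 0.422 without Boer 1 and 3.28 without Boer 2. For COL14A1 that of 2.58 points was -0.0921 without Boer 1, 1.42 without Macheng black 1, 4.93 without Macheng black 2, 1.39 without Macheng black 3 and 4.45 without Boer 2. FBLN1 had 11.8% and 16% in Boer 2 and Boer 3 and 7.5% in Macheng black 2. Which circRNAs a library lists sets which non-junction reads are counted, so these sums do not compare the same spans between libraries. Pooled over libraries, the shares were 2.35% for COL12A1, 7.69% for LAMC1, 2.53% for ITGB1, 5.57% for COL14A1 and 10.1% for FBLN1, beside a median of 6.12% and quartiles of 2.67% and 17.3% over 783 usable hosts.

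**Figure D5:**
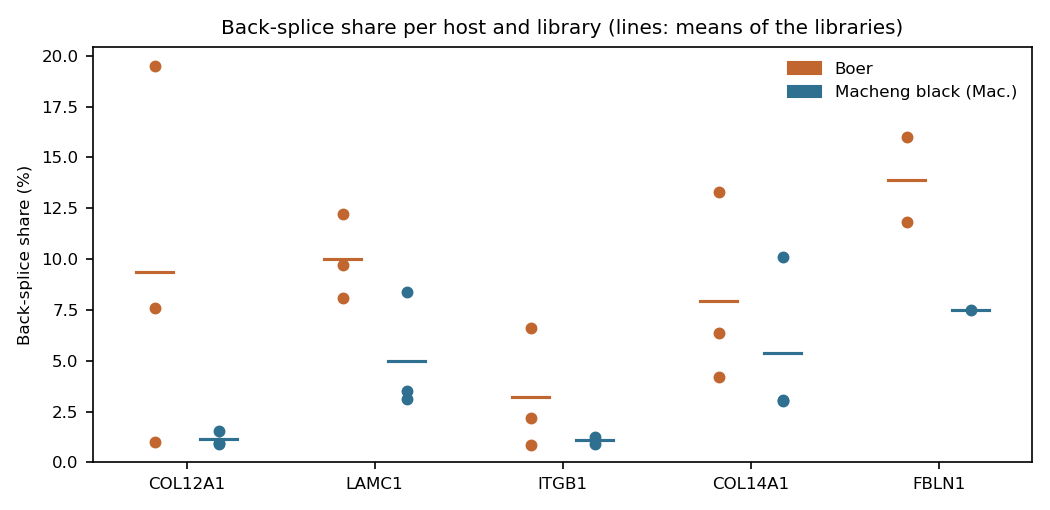
Back-splice share in percent for each host, 1 point per library with reads of the host (Boer left, Macheng black right), with lines at the means. The Macheng black libraries of COL12A1 lie between 0.899% and 1.55%, while its Boer libraries run from 0.986% to 19.5%.

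Of a list of 111 matrix and adhesion genes, 110 were in the reference table and 10 were usable circRNA hosts. Of these, 7 entered the test, the 5 genes among them. In edgeR 0 passed in either direction, where 1.16% of all tested hosts did. An unadjusted p under 0.05 was found for 1, ITGB1, as for 6.98% of all tested hosts. These counts are too small to tell the list from all hosts. Their fold changes were positive in 4 and negative in 3, with a median of 0.54 against 0.07 over the 430 tested hosts, of which 53% were positive. The tested hosts beyond the 5 were HMCN1, which encodes hemicentin-1 and had 223 reads (71, 18 and 21 in Boer and 26, 55 and 32 in Macheng black), and HSPG2, which encodes the basement membrane proteoglycan perlecan and had 30 (3, 4 and 9 in Boer and 2, 3 and 9 in Macheng black). Their log2 fold changes were -0.53 ± 0.36 and -0.22 ± 1.01 (SE, edgeR adjusted p = 0.959 for both). COL21A1 and COL6A3, which encode collagen chains, had 8 and 4 reads. Those of COL21A1 were all in Macheng black 2, and those of COL6A3 in Macheng black 2 and Macheng black 3. Neither was listed in the 3 libraries that the test required.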

How the data were processed

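Per the labels' protocols, ribosomal RNA was removed from the follicle RNA (Ribo-zero) and no step to enrich circular RNA is named. The submitters' processing notes name Bowtie2 2.0.6 and TopHat2. Which program called circRNAs, and on which build and annotation, these sources do not give. The deposited files, 1 per library, hold whole-number counts of back-splice (junction) and non-junction reads per circRNA, not normalized, per the file headers and values. Breed and number came from the sample titles. The titles' numbers differ from the numbers in the animal codes, and for Boer 2 the code in the description differs from that of its deposited file, so the numbers only name libraries.

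Symbols were taken from RefSeq's goat gene table (assembly ARS1.2), for naming alone (5 of 5 members, 754 of 783 usable hosts). A gene identifier was usable if on 1 chromosome and without a listed part over 1000000 bases; 14.6% of circRNAs had 1 usable host. CircRNAs and summed hosts that reached 2 reads in 3 or more libraries were tested with edgeR 4.0.16 in R 4.3.3 (quasi-likelihood test, TMM normalization, Benjamini-Hochberg adjustment over all features tested, 0.05). DESeq2 1.42.0 was an alternative. After TMM, 1 read was worth 15.5 to 38.1 CPM for circRNAs. For shares, scipy 1.17.1 gave exact permutation tests. Each SE is the log2 fold change divided by the root of its F. Each p-value concerns the difference between breeds, with the 3 animals of a breed as replicates. EdgeR set this difference against a spread estimated in part from all features tested. The permutation tests set it against relabelled libraries.

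The members, the matrix gene list, the markers and the tests were chosen with earlier results of these data known. All 5 hosts and their circRNAs were named, with values per library for the tested ones and the most read, and from the list the other hosts with the most reads. Exact intervals cover counting error only. Stretches outside listed introns were taken from the introns listed for a host in any library. One host of the matrix list is not reported here.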

Additional observations from a re-analysis of the deposited data

How the results depend on the processing

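The count of 13 circRNAs passing over the whole table was 8 with DESeq2, 35 with no filter on low counts, 2 with at least 5 reads in 3 libraries, and 1 to 21 when leaving out 1 library. The count of 5 hosts was 1 with DESeq2, 3 with no filter, 0 with at least 5 reads (edgeR, 22 at an unadjusted p under 0.05), 1 with all back-splice reads as library size, and 1 to 4 when leaving out 1 library. With the number in the titles as a replicate block it was 0 (edgeR, 21 at an unadjusted p under 0.05), and the count of circRNAs 11. Same-numbered libraries had correlations of deviations from the breed mean of -0.0331, -0.0393 and 0.0118, against -0.0237 to 0.0612 for the other pairs. No pairing by number was thus seen, though so few pairs cannot exclude one. No member passed under any alternative. Signs turned, with the range over left-out libraries, in COL12A1 1924777 to 1926118 (-0.27 without Boer 1, up to 0.76; -0.23 with the replicate block), COL12A1 1930655 to 1932702 (-4.22 to 0.04, the last without Macheng black 1), LAMC1 61805864 to 61811873 (-0.78 to 0.02, without Macheng black 2) and COL14A1 91607479 to 91619009 (-0.81 to 0.65; 0.14 without Boer 2, 0.65 without Macheng black 2). Among hosts they turned in COL12A1 (-0.15 without Boer 1, up to 1.05), COL14A1 (-0.81 to 0.54, without Macheng black 1) and FBLN1 (-0.22 without Boer 2, up to 3.69). Leaving out 1 library, the difference in the share of the most read COL12A1 circRNA ranged from -20.3 to 10.9 points (2.73 without Boer 1, 10.9 without Boer 2, 0.177 without Macheng black 2), and that in the COL14A1 back-splice share from -0.0921 (without Boer 1) to 4.93. The causes were not tested. Counting the LAMC1 entry without a gene, added after seeing the data, left 5 hosts called. The breed lists and the ratios to the floor without single libraries were also added after seeing the data. With 294 reads over 66 entries, depth limits every comparison.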

Other observations

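A pair of entries lay inside the COL12A1 span on the plus strand, opposite to the gene, with neither a gene nor a non-junction read. They ran from 1956406 to 1972569 in Boer 3 and from 1954163 to 1972638 in Macheng black 1, with 2 reads each. Both cover most of the COL12A1 circRNA from 1955655 to 1972678 on the other strand, but no end is shared with it.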
